A study of Mus musculus with 3 samples.

Results

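Notch pathway genes were followed in single cells of the healing mouse femur: the receptors *Notch1*, *Notch2*, and *Notch3*, the ligands *Jag1* and *Dll1*, and the target genes *Hes1*, *Hey1*, *Hey2*, *Heyl*, and *Nrarp*. They are 10 genes, picked by name, of the 32285 genes counted. The cells came from the fracture callus of C57BL/6 mice that had no treatment other than the femoral fracture, at day 7, day 10, and day 14. Bone marrow and muscle were cleaned off, the callus was digested, and live cells without CD45, CD31, or TER119 at their surface were sorted and captured in droplets. Each day gave 1 library of 3' RNA counted by unique molecular identifiers (UMIs), the number of mice behind a library was not given in the sources used here, and there were no replicates. No p-values were therefore computed, and every interval below covers counting error within 1 library only.

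Notch receptors sit in the membrane and are activated by ligands on a neighboring cell. The receptor is then cut, first by ADAM proteases and then by the γ-secretase complex, and its intracellular domain enters the nucleus, where it binds the DNA-binding protein RBPJ and a Mastermind coactivator. Genes of the HES and HEY families, which encode repressors, and *Nrarp*, which encodes a feedback inhibitor of the pathway, are classical targets. In blood vessels, NOTCH3 is the receptor of mural cells, the pericytes and smooth muscle cells that wrap the endothelium, and in the skeleton Notch signals are known for holding back osteoblast and chondrocyte differentiation.

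The 5 cell groups were set by 1 marker each. Among the 23463 cells within the limits of the study on genes, mitochondrial RNA, and hemoglobin RNA, 16714 had no UMI of *Ptprc*, the gene of CD45. A cell was called high for *Rgs5*, *Aspn*, *Cnmd*, *Col10a1*, or *Ifitm5* when it held at least 3 UMIs of the gene at a level of at least 25% of that gene's 99th percentile. This placed 9700 cells in 1 group, 220 cells were high for several markers, and 6794 for none. The day 7 library was mostly hematopoietic, with 6.37% of its cells free of *Ptprc* against 99.9% at day 10 and 98.2% at day 14, and only its 55 *Cnmd*-high cells were enough for a value. At day 10 and day 14 there were 70 and 191 *Rgs5*-high cells, 986 and 2465 *Aspn*-high cells, 2659 and 1575 *Cnmd*-high cells, 356 and 849 *Col10a1*-high cells, and 118 and 357 *Ifitm5*-high cells. Their median depth lay between 9065 and 20930 UMIs per cell. The libraries shared 29 to 42 cell barcodes pairwise.

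Marker genes that had not set the groups were read in each of them. *Rgs5*-high cells carried the pericyte genes *Mcam*, *Higd1b*, *Kcnj8*, *Abcc9*, *Cspg4*, and *Pdgfrb*, summed to 2069 CPM (UMIs of a gene per 1000000 UMIs of the group) at day 10 and 1989 at day 14, and the smooth muscle genes *Acta2*, *Myh11*, *Tagln*, and *Cnn1* at 6892 and 6865 CPM. *Cspg4* was not particular to them, being at 304 and 202 CPM there and at 372 and 317 CPM in *Cnmd*-high cells. Of the endothelial list, *Cdh5*, *Tek*, and *Cldn5* were at 0 UMIs in them on both days and *Pecam1* was at 3.29 and 8.11 CPM, whereas *Emcn* reached 55.9 and 32.9 CPM. The whole list, which also held *Kdr* and *Egfl7*, summed to 62.5 and 47.6 CPM in *Rgs5*-high cells, against at most 7.27 CPM in the other groups. *Rgs5*-high cells also had the highest sum of *Mki67*, *Ccnb2*, and *Top2a*, at 216 and 188 CPM against 3.54 to 49.6 CPM in the other groups. *Aspn*-high cells led for *Postn* (4392 and 3331 CPM) and *Ogn*, *Cnmd*-high cells for *Col2a1* (45856 and 39932 CPM), *Acan*, and *Ucma*, *Col10a1*-high cells for *Ihh* and *Mmp13*, as hypertrophic chondrocytes do, and *Ifitm5*-high cells for *Bglap* and *Ibsp*, as osteoblasts do. In that order, the lists also held *Ptn* and *Thbs2*, *Sox9*, *Alpl* and *Pth1r*, and *Dmp1*, *Col1a1*, and *Sp7*. Each whole list summed highest in the same group on both days. The hypertrophic list was at 9460 and 7141 CPM in *Col10a1*-high cells and at 3616 and 2913 CPM in *Ifitm5*-high cells.

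*Notch3*, on chromosome 17 (GRCm38 32120820 to 32166852, minus strand), was high in *Rgs5*-high cells and low in the other 4 groups. It stood at 384 CPM at day 10 (95% Poisson interval 345 to 426) and 421 CPM at day 14 (392 to 450), and 85.7% and 91.1% of these cells held a UMI of it. *Aspn*-high cells followed at 4.80 (3.74 to 6.07) and 5.68 CPM (4.92 to 6.53), a difference of 79.9-fold (61.6 to 105) and 74.0-fold (63.3 to 86.8). The *Cnmd*-high, *Col10a1*-high, and *Ifitm5*-high cells lay between 0.471 and 1.51 CPM, and neighbors among them did not differ beyond the counting interval. *Rgs5*-high cells were 1.06% of the *Ptprc*-free cells at day 10 and 1.97% at day 14, but they held 56.9% (52.9 to 60.9) and 61.4% (58.8 to 64.0) of all *Notch3* UMIs. After each cell was thinned to 2000 UMIs, so that depth was equal, a *Notch3* UMI was found in 52.9% and 55.3% of *Rgs5*-high cells, 0.815% and 1.51% of *Aspn*-high cells, and 0.0504% of the day 7 cells with at least 2 *Ptprc* UMIs. The 119 cells with at least 2 *Ptprc* UMIs at day 14 held 36 *Notch3* UMIs, or 26.0 CPM (18.2 to 36.0), and 3.45% of them (0.947 to 8.59) held 1 after thinning. At full depth only 5.88% of these cells held any. Their *Notch3* UMIs were thus clumped in few cells, and this Poisson interval is too narrow.

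*Notch2*, on chromosome 3 (98013527 to 98150361, plus strand), had another order. It was highest in *Aspn*-high cells, at 62.4 CPM (58.4 to 66.6) and 60.4 CPM (57.8 to 63.0), intermediate in the cartilage and bone groups at 35.4 to 46.5 CPM, and lowest in *Rgs5*-high cells, where only 10 and 24 UMIs gave 10.96 (5.26 to 20.2) and 12.2 CPM (7.79 to 18.1). For *Notch2*, the lowest of the other groups was 3.55-fold (1.92 to 7.41) and 2.91-fold (1.95 to 4.57) above the *Rgs5*-high cells. With cells thinned to 2000 UMIs, the *Rgs5*-high level was 22.1 and 21.3 CPM, from 3 and 8 UMI-holding cells. The share of cells with a *Notch2* UMI in the 4 other groups ran from 37.0% of *Ifitm5*-high cells at day 14 to 53.2% of *Aspn*-high cells at day 10.

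*Notch1*, on chromosome 2 (26457903 to 26516663, minus strand), was also highest in *Rgs5*-high cells, at 53.7 (39.7 to 71.0) and 46.1 CPM (37.1 to 56.6), 4.61-fold (3.28 to 6.36) and 4.76-fold (3.73 to 6.01) above *Aspn*-high cells. *Aspn*-high and *Col10a1*-high cells did not differ beyond counting error at day 10 (11.7 and 11.1 CPM), and at day 14 they did, at 9.69 and 5.78 CPM. For *Notch1*, *Cnmd*-high cells (4.44 and 2.55 CPM) and *Ifitm5*-high cells (3.30 and 1.69 CPM) were lowest and did not differ from each other beyond counting error. The plot of levels by group shows *Notch1* and *Notch3* led by the *Rgs5*-high cells and *Notch2* by the *Aspn*-high cells.

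**Figure D1:**
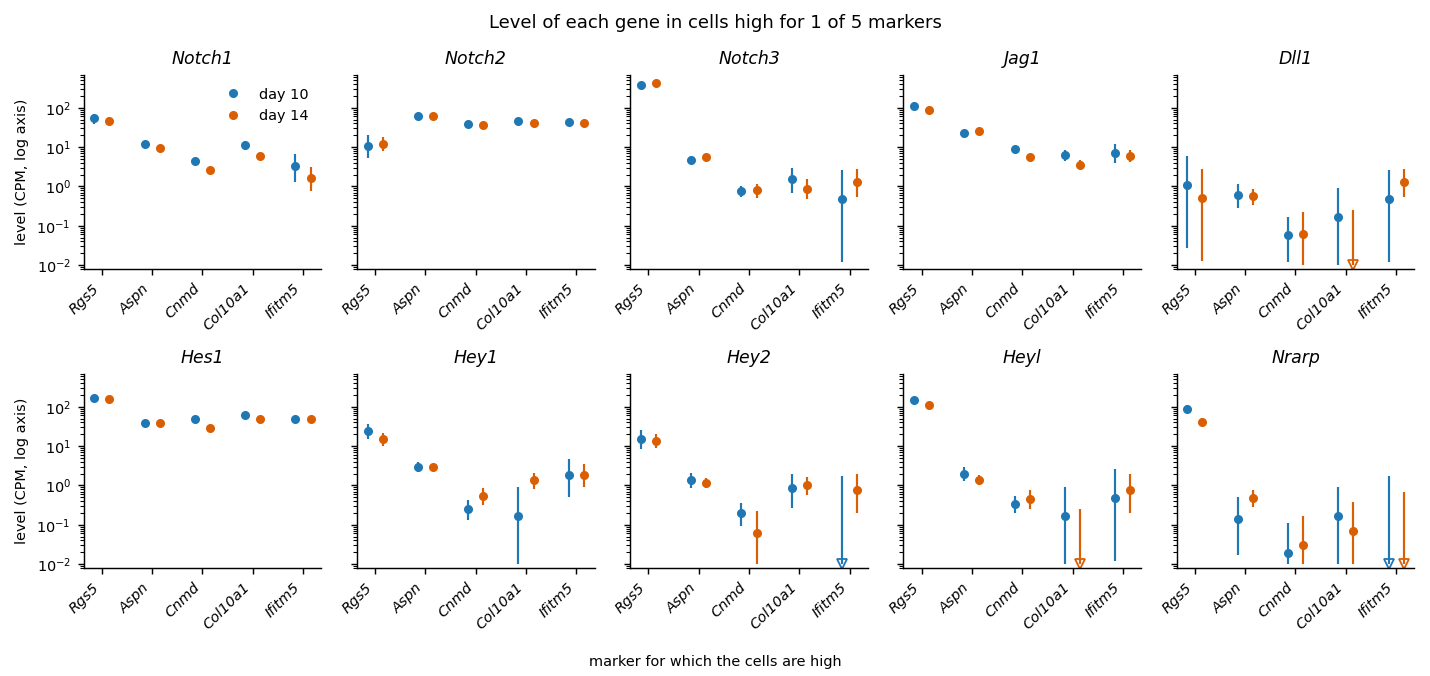
Level of each of the 10 genes (CPM, log axis) in cells high for 1 of 5 markers, at day 10 (blue) and day 14 (orange), with 1 library per day. Points are UMIs summed over the cells of a group, lines are exact 95% Poisson intervals cut at the lower edge of the axis, and open triangles at the bottom mark 0 UMIs. *Notch3*, *Heyl*, and *Nrarp* stand above 40 CPM in *Rgs5*-high cells and below 6 CPM elsewhere, whereas *Notch2* is lowest there.

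The ligand *Jag1*, on chromosome 2 (137081456 to 137116644, minus strand), was found beside the receptors in the same *Rgs5*-high cells, at 114 (93.2 to 138) and 88.2 CPM (75.6 to 102). *Aspn*-high cells came next at 22.6 (20.2 to 25.2) and 25.2 CPM (23.6 to 27.0). The step in *Jag1* from *Rgs5*-high to *Aspn*-high cells was 5.05-fold (4.01 to 6.31) and 3.49-fold (2.95 to 4.12), and the step down to the next group was 2.45-fold (2.13 to 2.83) and 4.21-fold (2.96 to 6.19). *Cnmd*-high, *Col10a1*-high, and *Ifitm5*-high cells held *Jag1* at 3.60 to 9.20 CPM. *Dll1*, the other ligand, was near absent, with 31 and 50 UMIs in all *Ptprc*-free cells of day 10 and day 14 and no group above 1.31 CPM, a depth at which no order of the groups could be read.

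Among the targets, *Heyl* on chromosome 4 (123233556 to 123249875, plus strand) and *Nrarp* on chromosome 2 (25180758 to 25183339, plus strand, a gene of 1 exon) were also led by the *Rgs5*-high cells. *Heyl* was at 148 (124 to 175) and 112 CPM (97.7 to 128) in *Rgs5*-high cells, and at 1.99 and 1.39 CPM in *Aspn*-high cells, a 74.4-fold (49.5 to 115) and 80.4-fold (58.8 to 112) difference. No *Heyl* UMI was counted in the 849 *Col10a1*-high cells of day 14, where 3 counts would be 0.204 CPM. *Nrarp* was at 87.7 (69.6 to 109) and 41.0 CPM (32.6 to 51.0) in *Rgs5*-high cells. In *Aspn*-high cells it came to 2 UMIs at day 10, or 0.156% of the *Rgs5*-high level (0.0186 to 0.584), and to 17 UMIs at day 14, or 1.18% (0.654 to 2.00). The *Rgs5*-high cells held 79.2% and 74.3% of all *Nrarp* UMIs in *Ptprc*-free cells and 45.3% and 49.4% of those of *Heyl*.

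*Hey1* and *Hey2* were low genes with the same leading group. *Hey1*, on chromosome 3 (8663359 to 8667256, minus strand), was at 24.1 (15.1 to 36.5) and 15.2 CPM (10.3 to 21.7) in *Rgs5*-high cells and at 2.95 and 2.96 CPM in *Aspn*-high cells, from 22 and 30 UMIs against 43 and 104. *Hey2*, on chromosome 10 (30832359 to 30842801, minus strand), was at 15.4 (8.39 to 25.8) and 13.7 CPM (9.02 to 19.9), against 1.37 and 1.17 CPM in *Aspn*-high cells. The *Rgs5*-high cells were 8.17-fold (4.66 to 14.0) and 5.14-fold (3.31 to 7.79) above *Aspn*-high cells for *Hey1*, and 11.2-fold (5.23 to 23.3) and 11.7-fold (6.95 to 19.6) for *Hey2*. The rest of the *Hey1* and *Hey2* UMIs lay outside this group: *Rgs5*-high cells held 12.2% and 8.02% of *Hey1* and 17.1% and 20.8% of *Hey2*.

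*Hes1*, on chromosome 16 (30064384 to 30067796, plus strand), was different from the other targets in that every group had it at 29.6 CPM or more. *Rgs5*-high cells led at 171 (145 to 200) and 158 CPM (141 to 177), which was 2.73-fold (2.25 to 3.29) and 3.22-fold (2.81 to 3.68) above *Col10a1*-high cells, the next in order. The other 4 groups had *Hes1* between 39.4 and 62.8 CPM at day 10 and between 29.6 and 49.1 CPM at day 14. The lowest was *Aspn*-high at day 10 and *Cnmd*-high at day 14.

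Promoter sequence was read for the Notch genes with a window at hand, whether or not they were high in the *Rgs5*-high group. RefSeq windows of the 250 bases before the start were matched for 7 of the 10 genes, not *Hes1*, *Hey1*, or *Heyl*, and they were searched on both strands for TGGGAA, the core of the RBPJ site, for GTGGGAA, which contains that core, and for CACGTG, an E-box bound by HES and HEY proteins. These were in 21.6%, 5.42%, and 6.02% of all 32851 windows. *Nrarp* held 1 CACGTG, at 108 to 103 bases before its start, and *Hey2* held TGGGAA as part of GTGGGAA on the reverse strand, at 207 to 201 bases before its start. None of the 3 was in the windows of *Notch1*, *Notch2*, *Notch3*, *Jag1*, or *Dll1*. The windows of *Notch3*, the receptor of this group, and of the targets *Nrarp* and *Hey2* follow 5' to 3' on the strand of the gene, from GRCm38.p6, with motif matches in capitals. That of *Notch3* is chr17:32166891-32167140 (minus), that of *Nrarp* is chr2:25180508-25180757 (plus), and the shown part of *Hey2* is chr10:30842834-30843033 (minus).
Notch3: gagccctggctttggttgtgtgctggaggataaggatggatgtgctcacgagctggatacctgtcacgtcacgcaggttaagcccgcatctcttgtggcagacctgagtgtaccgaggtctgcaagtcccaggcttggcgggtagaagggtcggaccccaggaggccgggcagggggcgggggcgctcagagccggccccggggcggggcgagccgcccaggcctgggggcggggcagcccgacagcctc
Nrarp: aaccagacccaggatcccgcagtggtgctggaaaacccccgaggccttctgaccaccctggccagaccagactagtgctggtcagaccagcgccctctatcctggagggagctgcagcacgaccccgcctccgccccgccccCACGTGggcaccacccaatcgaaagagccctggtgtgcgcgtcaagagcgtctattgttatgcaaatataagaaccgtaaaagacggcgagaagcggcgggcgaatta
Hey2: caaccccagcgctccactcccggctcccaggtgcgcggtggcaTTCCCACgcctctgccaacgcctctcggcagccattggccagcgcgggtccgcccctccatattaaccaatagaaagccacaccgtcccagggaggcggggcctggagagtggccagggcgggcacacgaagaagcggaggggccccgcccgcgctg
A match in capitals is a match of letters and not a measured binding site. The *Notch3* window has a GC content of 68.8%, that of *Nrarp* of 61.2%, and that of *Hey2* of 71.6%.

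A single rule was applied to all genes to see how often such a pattern occurs. A gene was called when its level in a group was at least 2-fold above the mean of the other 4 groups at day 10 and again at day 14, among 9618 genes with a mean of at least 5 CPM over the 10 combinations of group and day. Of the 10 Notch genes, 8 reached this level, and *Dll1* and *Hey2* did not. In *Rgs5*-high cells 7 were called (*Notch1*, *Notch3*, *Jag1*, *Hes1*, *Hey1*, *Heyl*, and *Nrarp*), against 10.3% of all genes. *Notch3*, *Hey1*, *Heyl*, and *Nrarp* reached the minimum level only through the *Rgs5*-high cells, so their call says little. With the minimum set on the other 4 groups alone, a choice made after seeing the data, 4 of the 10 genes were left and 3 were called (*Notch1*, *Jag1*, and *Hes1*), against 7.66% of 9322 genes. None of the 10 genes was called in *Aspn*-high cells (5.52% of all genes), *Cnmd*-high cells (2.9%), *Col10a1*-high cells (4.13%), or *Ifitm5*-high cells (2.64%).

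Over all 10 genes, the median log2 ratio of *Rgs5*-high cells to the other 4 groups, with 1 CPM added to both, was 3.29 at day 10 and 3.00 at day 14, against 0.14 and 0.21 over the 9618 genes. The 9618 genes had to reach the level minimum and the 10 did not, so the medians are of unlike sets. Of the 10, *Dll1* and *Hey2* are below it, and *Notch3*, *Hey1*, *Heyl*, and *Nrarp* reach it only through the *Rgs5*-high cells. When cells with a UMI of *Pecam1*, *Cdh5*, *Kdr*, *Tek*, or *Cldn5* were left out, 67 and 178 cells being left, *Notch3* was at 389 and 419 CPM and *Nrarp* at 89.9 and 40.0 CPM. *Cdh5*, *Tek*, and *Cldn5* had no UMI in *Rgs5*-high cells, so this filter acted through *Pecam1* and *Kdr* at most. *Emcn*, which was not part of the filter, stayed at 58.8 and 31.7 CPM. The part of endothelial RNA in these levels was not tested.

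**Figure D2:**
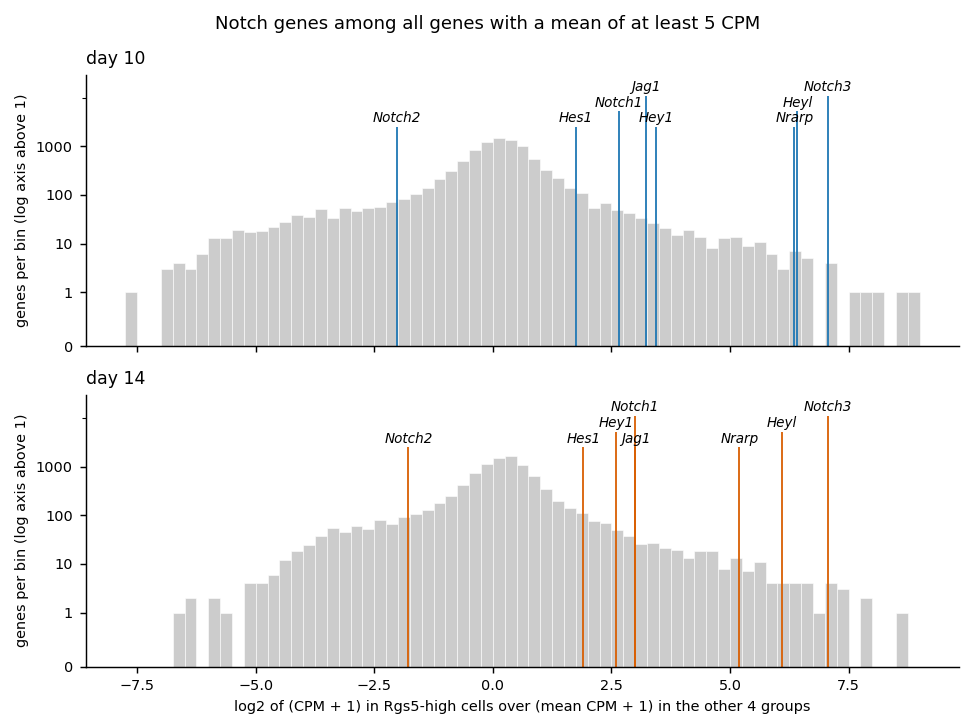
Histogram of the log2 ratio of the level in *Rgs5*-high cells to the mean of the other 4 groups (1 CPM added to both) over the 9618 genes with a mean of at least 5 CPM, at day 10 (top) and day 14 (bottom). Grey bars count genes per bin on an axis that is logarithmic above 1, and colored lines mark the 8 Notch genes that reached the minimum. *Notch2* lies to the left of 0 and the other 7 to the right, with *Notch3*, *Heyl*, and *Nrarp* at the far end. *Notch3*, *Hey1*, *Heyl*, and *Nrarp* reached the minimum only through the *Rgs5*-high cells.

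Some of these genes were lower in the *Rgs5*-high group without its dividing cells, mostly at day 10. Without the cells that held a UMI of *Mki67*, *Ccnb2*, or *Top2a*, 47 cells were left at day 10 and 146 at day 14. *Hes1* then fell from 171 to 110 CPM at day 10, *Hey1* from 24.1 to 10.8 CPM, *Nrarp* from 87.7 to 66.7 CPM, and *Jag1* from 114 to 91.9 CPM. *Notch3* (360 CPM) and *Heyl* (146 CPM) were within the intervals given above. Among all 70 cells of day 10, the top 4 for each gene held 39.1% of the *Hes1* UMIs and 63.6% of the *Hey1* UMIs. At day 14 leaving out such cells changed *Hes1* from 158 to 163 CPM, *Hey1* from 15.2 to 13.8 CPM, and *Jag1* from 88.2 to 88.7 CPM. *Heyl* went from 112 to 108 CPM and *Nrarp* from 41.0 to 32.0 CPM. The part of dividing cells in these levels was not tested.

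Pericytes and vascular smooth muscle cells can be told apart by contractile genes, and the *Rgs5*-high cells were therefore split at 1000 CPM of *Acta2*. This gave 55 cells at or above that level, here called with *Acta2*, and 15 below it at day 10, and 112 and 79 at day 14. The cells below it still held *Acta2*, at 351 and 318 CPM. *Notch3* was within counting error between the cells above and below, with a ratio of 0.835 (0.637 to 1.11) and 1.01 (0.876 to 1.17). So were *Hes1* (1.02 and 0.946) and *Jag1* (0.994 and 1.08). *Nrarp* was higher with *Acta2* at day 14, at 49.5 against 25.6 CPM, a ratio of 1.93 (1.13 to 3.47), and at day 10 the ratio of 1.36 (0.697 to 2.96) was within counting error. *Heyl* was lower with *Acta2* at day 10, with a ratio of 0.577 (0.388 to 0.878), and *Notch1* was lower at day 14, with a ratio of 0.564 (0.366 to 0.871), each on 1 of the days only. *Kcnj8* and *Abcc9*, subunits of a potassium channel of pericytes, were lower with *Acta2* on both days. So was *Pdgfrb*, at 0.699 (0.554 to 0.890) and 0.754 (0.663 to 0.858). *Mcam* and *Higd1b* were higher with *Acta2* at day 14, at 1.70 (1.40 to 2.07) and 1.33 (1.15 to 1.55), and within counting error at day 10. *Cspg4* did not differ, at 1.03 and 0.999. The pericyte genes thus did not all go the same way.

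Low levels in the other groups were set against genes of the mural cells themselves. As a share of the level in *Rgs5*-high cells, *Aspn*-high cells held 1.25% (0.954 to 1.62) and 1.35% (1.15 to 1.58) of *Notch3* and 1.34% and 1.24% of *Heyl*. The same share was 0.0756% and 0.0131% for *Higd1b*, 0.0282% and 0.0653% for *Myh11*, 0.230% and 0.149% for *Abcc9*, 0.482% and 0.577% for *Mcam*, and 0.561% and 0.107% for *Kcnj8*. The other mural genes of the lists had far larger shares, 22.01% and 26.9% for *Cspg4* and 20.2% and 17.3% for *Pdgfrb*. Shares were 19.1% and 13.5% for *Acta2*, 29.9% and 25.2% for *Tagln*, and 44.8% and 25.8% for *Cnn1*. *Notch3* and *Heyl* thus lay above the first 5 mural genes named and below the rest. For *Notch1* (21.7% and 21.01%), *Jag1* (19.8% and 28.6%), *Hey1* (12.2% and 19.4%), and *Hey2* (8.94% and 8.51%) the share in *Aspn*-high cells was larger than for *Notch3*. *Nrarp* at day 10 (0.156%, 0.0186 to 0.584) was in the range of the first 5 of these mural genes.

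*Aspn*-high cells were split in the same way. Divided at the same 1000 CPM of *Acta2*, a division added after the values were seen, the 260 and 409 cells with *Acta2* had more *Scx*, a tendon transcription factor, at 356 and 370 CPM against 157 and 172, and no more *Myh11* than the others. *Notch2* was lower in them, with a ratio of 0.678 (0.578 to 0.792) at day 10 and 0.744 (0.658 to 0.840) at day 14, and so were *Jag1*, at 0.708 (0.543 to 0.916) and 0.721 (0.592 to 0.871), and *Hey1*, at 0.230 (0.0597 to 0.637) and 0.515 (0.249 to 0.965). *Notch1* did not differ, at 0.961 (0.678 to 1.34) and 1.03 (0.771 to 1.35). *Hes1* was lower with *Acta2* at day 10 only, at 0.618 (0.502 to 0.755) and then 0.909 (0.785 to 1.05). *Notch3* was lower at day 14 only, at 0.719 (0.390 to 1.26) and then 0.566 (0.350 to 0.877). *Dll1*, *Hey2*, *Heyl*, and *Nrarp* were within counting error on both days.

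Levels at day 10 and day 14 were then compared within each group. In *Rgs5*-high cells *Notch3* held its level, with a ratio of day 14 to day 10 of 1.10 (0.966 to 1.25), and *Hes1* too, at 0.924 (0.760 to 1.13). *Nrarp* was at 0.468 of its day 10 level (0.339 to 0.646), *Heyl* at 0.757 (0.608 to 0.944), and *Jag1* at 0.773 (0.603 to 0.996). *Nrarp* UMIs were counted in 35.7% of the cells at day 10 and 24.6% at day 14, with 3.2 and 1.72 UMIs per cell that had any. Of the 8 genes above the minimum level, *Nrarp* alone was past 2-fold in this group, where 10.1% of all genes were. *Dll1*, below the minimum, was at 0.462 (0.00589 to 36.3) from 1 UMI on each day. With the mean of each cell's own CPM as the level, *Nrarp* was not past 2-fold.

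In *Cnmd*-high cells *Hes1* dropped from 49.7 to 29.6 CPM, a ratio of 0.595 (0.552 to 0.640), *Notch1* from 4.44 to 2.55 CPM, a ratio of 0.575 (0.442 to 0.741), and *Jag1* from 9.20 to 5.50 CPM, a ratio of 0.598 (0.501 to 0.712). *Notch2* was at 0.911 (0.847 to 0.980). The share of *Cnmd*-high cells with a *Hes1* UMI was 28.0% and 26.2%, and the UMIs per cell that had any were 3.41 and 2.36. At equal depth the share was 6.59% (5.67 to 7.61) and 3.96% (3.05 to 5.05). *Col10a1*-high cells moved the same way, with *Hes1* at 0.783 (0.690 to 0.889), *Notch1* at 0.522 (0.374 to 0.731), *Jag1* at 0.581 (0.374 to 0.909), and *Notch2* at 0.859 (0.743 to 0.995). In *Aspn*-high cells none of *Notch1*, *Notch2*, *Notch3*, *Jag1*, or *Hes1* moved beyond the counting interval, and in *Ifitm5*-high cells *Hes1* (0.987, 0.784 to 1.25) and *Notch2* (0.950, 0.741 to 1.23) did not.

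The 2-fold rule between days took other genes in these groups, all with few UMIs. It called *Nrarp* in *Aspn*-high cells, from 2 to 17 UMIs, against 2.15% of all genes, and *Hey1* in *Cnmd*-high cells, from 13 to 18 UMIs in fewer cells, against 1.89%. In *Col10a1*-high cells it called *Hey1*, *Heyl*, and *Nrarp*, against 3.1%, and in *Ifitm5*-high cells *Notch3*, from 1 to 7 UMIs, against 6.12%. Of these, only *Hey1* in *Col10a1*-high cells, with 1 UMI at day 10 and 20 at day 14, had an interval that left out 1 (8.11, 1.30 to 336). Since 8 of those 20 UMIs lay in 1 cell, this interval is too narrow. Each day was a single library, so a difference between days cannot be told apart from a difference between libraries.

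**Figure D3:**
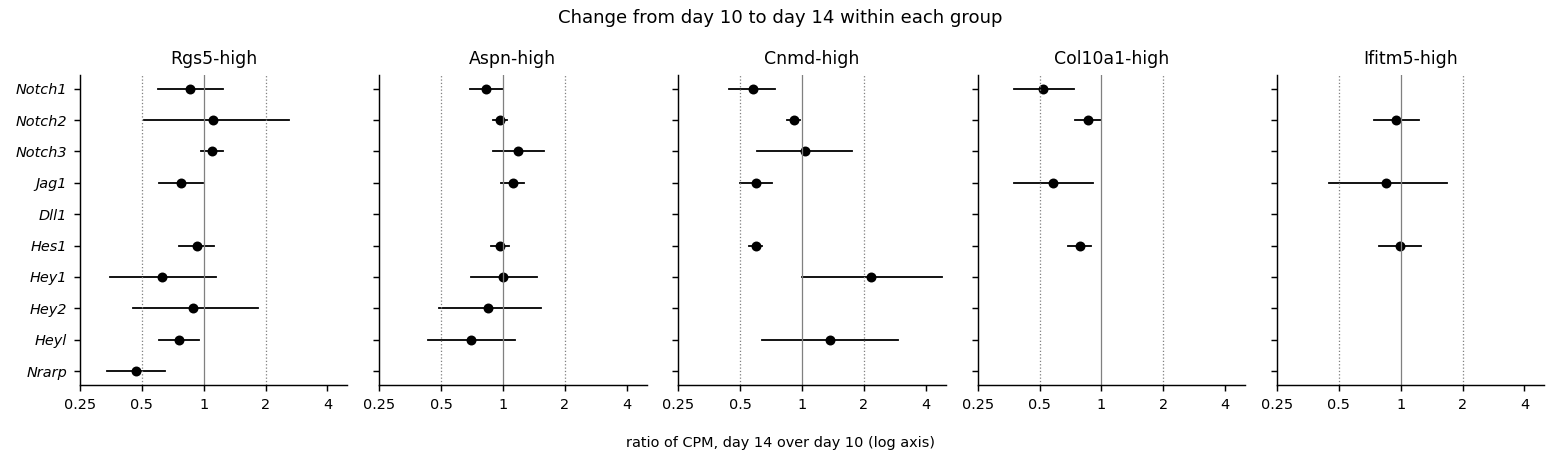
Ratio of the level at day 14 to that at day 10 (CPM, log axis) for the 10 genes in the 5 groups, drawn where both days had at least 10 UMIs. Points are ratios, lines are exact 95% conditional intervals, and dotted lines mark 2-fold in either direction. *Nrarp* in *Rgs5*-high cells lies at 0.468, and *Hes1*, *Jag1*, and *Notch1* lie to the left of 1 in *Cnmd*-high and *Col10a1*-high cells.

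*Hes1* was patchy. In *Cnmd*-high cells 5% of the cells held 52.1% of its UMIs at day 10 and 50.8% at day 14, with up to 34 and 31 UMIs in 1 cell, while the same share of cells held 25.1% and 25.4% of the *Notch2* UMIs. In *Aspn*-high cells the top 5% held 51.7% and 49.3% of the *Hes1* UMIs, and in *Rgs5*-high cells 39.1% and 28.5%. Since its UMIs were clumped in few cells, the Poisson intervals of *Hes1* are too narrow.

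The cells with at least 2 *Hes1* UMIs were then set against the other cells of their group, a split chosen after the patchiness was seen. In *Aspn*-high cells (121 against 865 at day 10 and 281 against 2184 at day 14) the *Hes1* cells held more of 5 other Notch genes on both days. *Notch3* was at 11.005 against 3.92 CPM at day 10, a ratio of 2.81 (1.58 to 4.80), and at 16.8 against 4.09 CPM at day 14, a ratio of 4.10 (3.03 to 5.51). *Notch1* had ratios of 1.75 (1.17 to 2.57) and 2.98 (2.34 to 3.77), *Jag1* of 1.86 (1.41 to 2.44) and 1.82 (1.54 to 2.15), *Hey1* of 2.72 (1.27 to 5.44) and 3.39 (2.18 to 5.18), and *Heyl* of 2.67 (1.02 to 6.28) and 5.24 (2.83 to 9.56). *Notch2* did not differ, at 1.18 (0.974 to 1.42) and 1.11 (0.975 to 1.25). Median depth was close, at 14442 against 14865 and 15632 against 14186 UMIs. The pericyte genes *Mcam*, *Higd1b*, *Kcnj8*, and *Abcc9* were also higher in the *Hes1* cells at day 14, summed to 4.08 against 2.27 CPM, a ratio of 1.80 (1.01 to 3.05), and at 6.60 against 3.37 CPM, a ratio of 1.96 (0.940 to 3.78), at day 10. *Rgs5* was at 2.75 against 4.08 CPM at day 10 and 13.4 against 2.86 CPM at day 14, and the endothelial list at 9.90 against 5.25 and 9.07 against 7.02 CPM. The list of *S100a8*, *S100a9*, *Lyz2*, *Tyrobp*, and *Cd52* was at 14.3 against 7.06 and 71.7 against 231 CPM, and *Mki67*, *Ccnb2*, and *Top2a* summed to 58.9 against 48.3 and 39.7 against 18.3 CPM. The part of these in the ratios was not tested.

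The same split was made in cartilage and in mural cells. In *Cnmd*-high cells (433 against 2226, and 189 against 1386) only *Jag1* was higher with *Hes1* on both days, with ratios of 1.69 (1.38 to 2.07) and 1.70 (1.16 to 2.44), and *Notch3* was at 0.598 (0.183 to 1.54) and 0.517 (0.0592 to 2.08) from 5 and 2 UMIs. The *Hes1* cells there were deeper, with a median of 23009 against 18341 UMIs at day 10 and 23892 against 20557 at day 14. In *Rgs5*-high cells *Notch3* was lower with *Hes1* at day 10, at 0.725 (0.576 to 0.908), and higher at day 14, at 1.16 (1.01 to 1.33), and *Notch1* was within counting error on both days. *Heyl* was higher with *Hes1* at day 10, at 1.45 (1.02 to 2.07), and at 1.28 (0.974 to 1.68) at day 14. *Nrarp* was at 1.195 (0.749 to 1.90) and 1.69 (1.07 to 2.69), and *Hey2* at 1.39 (0.416 to 4.64) and 2.99 (1.28 to 7.55). *Mki67*, *Ccnb2*, and *Top2a* summed to 341 against 126 CPM and 223 against 165 CPM in the same cells, and their part in the ratios was not tested.

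**Figure D4:**
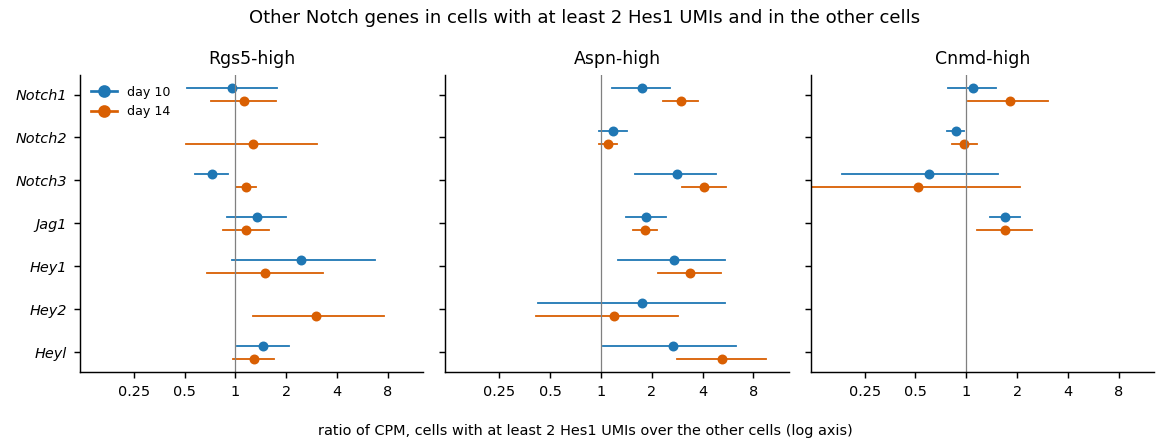
Ratio of the level in cells with at least 2 *Hes1* UMIs to that in the other cells of the same group (log axis) for 7 Notch genes in *Rgs5*-high, *Aspn*-high, and *Cnmd*-high cells, at day 10 (blue) and day 14 (orange), drawn where there were at least 20 UMIs in all. Lines are exact 95% conditional intervals. In *Aspn*-high cells the whole intervals of *Notch1*, *Notch3*, *Jag1*, *Hey1*, and *Heyl* lie to the right of 1 on both days. Those of *Notch2* include 1, and in *Cnmd*-high cells only *Jag1* has its whole interval to the right of 1 on both days. The share of all genes with such intervals was not counted.

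The cells high for *Aspn* and *Cnmd* together, 70 at day 10 and 47 at day 14, had *Col2a1* at 9343 and 9770 CPM, between the *Aspn*-high and the *Cnmd*-high cells. *Hes1* came to 2 UMIs in the 70 cells, 1.92 CPM (0.233 to 6.95), and to 4 UMIs in the 47 cells, 5.43 CPM (1.48 to 13.9), below both the *Aspn*-high cells (39.4 and 38.1 CPM) and the *Cnmd*-high cells (49.7 and 29.6 CPM). The share of cells with a *Hes1* UMI was 2.86% (exact binomial interval 0.348 to 9.94) and 6.38% (1.34 to 17.5), against 23.7% and 24.8% of *Aspn*-high and 28.0% and 26.2% of *Cnmd*-high cells, at a median of 14423 and 14081 UMIs per cell. *Notch2* was at 79.8 (63.6 to 98.98) and 52.9 CPM (37.6 to 72.4), against 62.4 and 60.4 CPM in *Aspn*-high cells, and *Jag1* at 6.73 (2.71 to 13.9) and 2.71 CPM (0.329 to 9.81), below *Aspn*-high cells. *Mki67* was at 0.962 (0.0244 to 5.36) and 1.36 CPM (0.0344 to 7.56) there, against 19.2 and 4.75 CPM in *Aspn*-high cells, the latter within the interval. *Top2a* was at 1.92 (0.233 to 6.95) and 4.07 CPM (0.840 to 11.9), against 17.5 and 8.44 CPM, and at day 14 it was in 6.38% of these cells and 3.04% of *Aspn*-high cells. The 47 cells of day 14 were fewer than the 50 set as the minimum and were added after the values were seen.

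**Figure D5:**
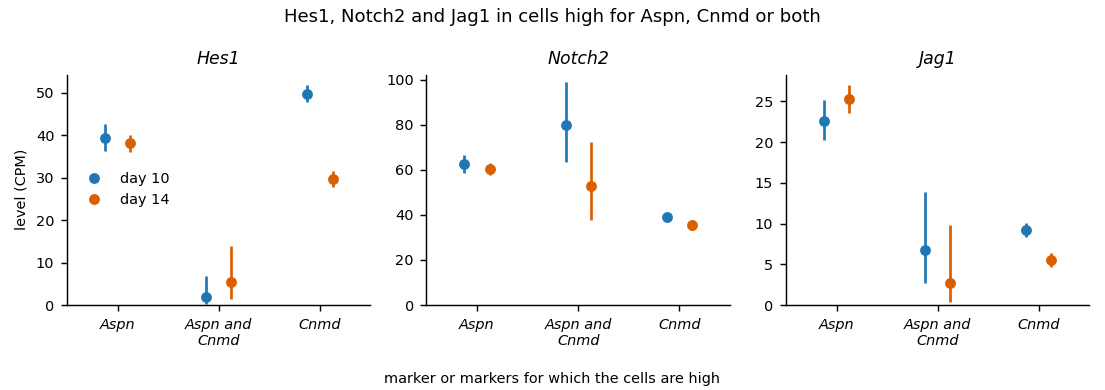
Level (CPM) of *Hes1*, *Notch2*, and *Jag1* in *Aspn*-high cells, cells high for *Aspn* and *Cnmd*, and *Cnmd*-high cells, at day 10 (blue) and day 14 (orange). Points are summed UMIs of 1 library and lines are exact 95% Poisson intervals. *Hes1* is at 1.92 and 5.43 CPM in the cells with both markers and at 29.6 CPM or more in the cells with 1 marker, whereas *Notch2* is at 79.8 and 52.9 CPM there.

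Of 42 other Notch genes listed by role, 28 reached the 5 CPM minimum and 3 were called in *Rgs5*-high cells, a share near the 10.3% of all genes. *Dlk1*, a ligand-like protein without the domain that activates the receptor, was at 193 (166 to 224) and 274 CPM (252 to 298) there and at no more than 8.26 CPM elsewhere. It reached the minimum only through the *Rgs5*-high cells, so its call says little. *Ncstn*, a subunit of γ-secretase, was at 60.3 and 38.5 CPM against 14.8 to 28.3 CPM, and *Dtx3*, of the deltex family of ubiquitin ligases, at 63.6 and 94.8 CPM against 8.56 to 41.5 CPM. *Hes6*, which encodes a HES protein that does not act as a classical Notch-induced repressor, was called in *Aspn*-high cells (36.3 and 40.8 CPM), where 5.52% of all genes were, and *Neurl1a*, a ubiquitin ligase for Notch ligands, in *Ifitm5*-high cells (16.5 and 9.18 CPM), where 2.64% were. No gene of the list was called in *Cnmd*-high or *Col10a1*-high cells.

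Genes that all receptors use were counted in every group. *Rbpj* was highest in *Aspn*-high cells, at 86.8 and 86.4 CPM, and lowest in *Ifitm5*-high cells, at 27.3 and 30.3 CPM, with *Rgs5*-high cells at 52.6 and 47.6 CPM. *Adam10*, the protease of the first cut, ranged from 9.91 CPM in *Cnmd*-high to 68.4 CPM in *Rgs5*-high cells at day 14. Over the 42 genes, with no level minimum set on them, the median log2 ratio of *Rgs5*-high cells to the others was 0.19 and 0.17, close to that of all genes. Other ligands were scarce: *Dll4*, a ligand of endothelial cells, had no UMI in any of the 5 groups, and *Jag2* stayed at or below 0.612 CPM. *Notch4* was low, and its highest levels apart from 7 UMIs in *Rgs5*-high cells at day 10 were in *Col10a1*-high cells, at 4.19 (2.71 to 6.19) and 3.74 CPM (2.82 to 4.87). Between days the rule called 1 gene of the list in *Rgs5*-high cells, *Maml3*, a Mastermind coactivator, with a ratio of 2.05 (1.13 to 3.96), against 10.1% of all genes, and *Dlk1* in *Aspn*-high and *Col10a1*-high cells, against 2.15% and 3.1%.

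The genes whose levels followed each Notch gene most closely over the 10 combinations of group and day were looked up for the 8 genes above the minimum. For *Notch3* they were *Enpep*, *Ms4a4d*, and *Dmd* (Pearson r of log2 of CPM plus 1, 0.996 to 0.997), for *Heyl* *Stc1*, *Enpep*, and *Col4a2* (0.992 to 0.996), for *Nrarp* *Kcnk3*, *Kcnmb1*, and *Emcn* (0.997 to 0.998), and for *Hes1* *Nes*, *Arhgef17*, and *Abcc9* (0.968 to 0.982). *Notch1* was closest to *Sorbs3*, *Lama4*, and *Xiap*, *Jag1* to *Ywhag*, *Adcy3*, and *Cbl*, *Hey1* to *BC028528*, *Socs5*, and *Acsl5*, and *Notch2* to *Tcfl5*, *Orai2*, and *Gpx3*. The 10 points come from 2 libraries, and for the genes high in *Rgs5*-high cells r rests on the 2 points of that group.

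In the day 7 library most cells were hematopoietic. The 6284 cells with at least 2 *Ptprc* UMIs held *Notch1* at 96.3 CPM (93.5 to 99.1) and *Notch2* at 91.1 CPM (88.4 to 93.8), levels above those of every group at day 10 and day 14. *Notch3* was at 0.229 CPM, *Hes1* at 2.79 CPM (2.34 to 3.30), and *Nrarp* at 0.749 CPM in the same cells. The 372 *Ptprc*-free day 7 cells high for no marker held *Notch1* at 31.8 CPM (26.0 to 38.5), *Notch2* at 47.7 CPM (40.6 to 55.7), and *Notch3* at 2.40 CPM (1.04 to 4.73). The 55 *Cnmd*-high cells of day 7 had *Notch2* at 42.5 CPM (31.4 to 56.4), *Hes1* at 26.6 CPM (17.9 to 37.9), *Notch1* at 6.20 CPM, and *Jag1* at 5.31 CPM, with 0 UMIs of *Notch3*, *Hey1*, *Hey2*, *Heyl*, and *Nrarp*, for which 3 counts would be 2.66 CPM. Their hematopoietic list summed to 1717 CPM, against 4.36 and 38.2 CPM at day 10 and day 14. At day 14 the *Aspn*-high cells had the highest sum of this list among the groups, at 211 CPM.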

How the data were processed

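Single cells of callus were captured with a 10x Genomics 3' kit (version 2 per the labels, a later version per the methods of the study). The authors aligned the reads to the mouse genome and collapsed UMIs with Cell Ranger, and deposited raw whole-number counts per gene and cell. The version of Cell Ranger is given as 3.0 in the submitters' processing notes, with mm10, the file header names 3.1.0, and the study's methods differ from both. Barcodes numbered 9103, 8801, and 12984, with 113127788, 144103160, and 195661880 UMIs.

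Cells had 500 to 5000 genes, at most 10% mitochondrial and 5% hemoglobin UMIs, and 0 *Ptprc* UMIs. No doublet caller was run, and cells high for several markers were left out of the groups. The marker levels that made a cell high were 2123 CPM for *Rgs5*, 2986 for *Aspn*, 1648 for *Cnmd*, 14998 for *Col10a1*, and 489 for *Ifitm5*. Levels are CPM of UMIs summed over cells, with exact Poisson 95% intervals. Ratios have exact conditional binomial intervals, and shares have Clopper-Pearson intervals. A count of 0 was read as allowing 3 counts. A group needed 20 cells at day 7 for a value. The scripts were tested on simulated data and used Python 3.11.15, numpy 2.4.6, scipy 1.17.1, pandas 2.3.3, and matplotlib 3.10.9. Gene positions are from GENCODE M21.

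The genes, the cell groups, and the lists were chosen with earlier results of these data known. Named in the text were the 10 genes, other pathway genes called in a group with up to 6 examples, and the 3 genes with the highest r to each Notch gene. *Maml3* and the genes in the closing section were named after their values were seen. Alternatives were other marker levels, limits on cells, ways of averaging, depths, fold thresholds, and level minimums. The result for 1 pathway gene is not reported here.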

Additional observations from a re-analysis of the deposited data

How the results depend on the processing

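Over 111 alternative counts of Notch genes, 89 stayed within 1.5 times the reported count and 22 did not. The 7 genes called in *Rgs5*-high cells were 6 to 8 under the settings planned and 3 with the minimum taken over the other 4 groups alone, which by construction leaves fewer genes. For *Aspn*-high cells the count of 0 was 2 with the UMIs of the other groups pooled and 1 at 1.5-fold. Counts between days, outside *Rgs5*-high cells of genes with few UMIs, moved more often. *Rgs5*-high cells, with 1, had 0 by the mean of each cell's CPM, 2 at 1.5-fold, and 2 with no minimum level. *Aspn*-high cells, with 1, had 0 with cells high at 10% of the 99th percentile and 2 at 50%. *Cnmd*-high cells, with 1, had 0 at 50%, with cells of several markers assigned to 1, with no upper limit on genes, and with no limits on cells, had 2 at 10%, by the mean of each cell's CPM, at 2000 UMIs, and with no minimum level, and had 5 at 1.5-fold. *Col10a1*-high cells went from 3 to 6 at 1.5-fold, and *Ifitm5*-high cells from 1 to 3 at 10%, at 1.5-fold, and with no minimum level, and to 4 at 2000 UMIs. The cause was not tested. Of 46 levels of at least 5 CPM, those that moved by over 1.5 times were *Notch2* in *Rgs5*-high cells (22.1 and 21.3 CPM at 2000 UMIs), *Jag1* in *Col10a1*-high cells at day 10 (3.56 CPM at 50%, 17.2 CPM at 2000 UMIs), and *Hey2* in *Rgs5*-high cells at day 10 (7.35 CPM at 2000 UMIs). Depth limits *Dll1*, *Hey2*, and all targets but *Hes1* outside *Rgs5*-high cells. No paired analysis was possible because each day had 1 library.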

Other observations

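Genes beyond the Notch pathway that went with *Hes1* inside a group were taken as the 6 genes with the largest ratio on the weaker of the 2 days between cells with at least 2 *Hes1* UMIs and the others, with 1 CPM added to both levels, among genes of at least 50 CPM in the former on both days, and are given as values without a test. In *Cnmd*-high cells these were *Il11*, *Hbegf*, *Klf10*, *Smad7*, *Id1*, and *Bhlhe40*. *Il11*, a cytokine gene, was at 361 against 98.3 CPM at day 10, a ratio of 3.68 (3.51 to 3.84), and at 55.6 against 11.8 CPM at day 14, a ratio of 4.73 (4.004 to 5.59). *Smad7*, an inhibitor of TGF-β signals and a known target of them, had ratios of 2.72 (2.62 to 2.83) and 2.06 (1.94 to 2.20), and *Id1*, a known target of BMP signals, of 2.55 (2.46 to 2.65) and 2.00 (1.90 to 2.11).

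In *Aspn*-high cells the 6 genes were *Ccn5*, *Col18a1*, *Phlda1*, *Hsph1*, *Atf3*, and *Hspb1*, with *Col18a1*, a collagen of basement membranes, at 136 against 66.8 CPM and 142 against 50.3 CPM. In *Rgs5*-high cells they were *Tppp3*, *Birc5*, *Pclaf*, *Tpx2*, *Atf3*, and *Top2a*, of which *Birc5*, *Pclaf*, *Tpx2*, and *Top2a* are genes of dividing cells, and *Top2a* was at 123 against 28.3 CPM at day 10 and 102 against 62.6 CPM at day 14. In *Ifitm5*-high cells *Dmp1*, a gene of osteocytes, led with 435 against 125 CPM and 558 against 260 CPM, from 25 and 56 cells with *Hes1*. In *Col10a1*-high cells the 6 genes were *Cebpb*, *Gem*, *Gadd45g*, *Pdgfa*, *Nfil3*, and *Smad7*. *Atf3* was in the lists of *Aspn*-high and *Rgs5*-high cells, and *Smad7* in those of *Cnmd*-high and *Col10a1*-high cells.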
